A study of Mus musculus with 64 samples.

Results

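The late stage of T cell transfer colitis was described from 4 surface protein libraries of the colon, taken at weeks 4, 5, 6 and 7 from untreated SCID mice. Every barcode of these 4 tables was a member, which gave 55722 of the 131917 barcodes in the 9 surface protein libraries used here. The filter on antibody counts kept 55134 of them and left out 588. Those kept numbered 17912, 13900, 11415 and 11907 at weeks 4, 5, 6 and 7.

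The study followed colitis over time in mice that received CD45RBhi cells, with SCID tissue taken at 7-day intervals from week 0 to week 7. All 8 untreated SCID groups carry the transfer in their labels, week 0 included, and none of them received the antibody against IL-12p40 that the ninth library's mice were given. The genotype is given as SCID for the protein libraries and as BALB/c SCID for the matching RNA libraries, and ages are not given in the sources used here. Colons of 3 animals were pooled for each week, live EpCAM-/CD45+ cells of the lamina propria were sorted as the immune fraction, and each week is 1 library. A week and its pool therefore cannot be told apart, no value has a replicate, and intervals in the text are exact 95% intervals that cover counting error only.

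SCID mice lack T and B lymphocytes of their own, and T cells in their colon therefore come mainly from the transferred cells. CD45RBhi CD4 T cells are largely naive cells without regulatory T cells, and after transfer they expand in response to gut bacteria and drive a colitis rich in neutrophils, monocytes and macrophages. The panel of 11 tagged antibodies reads these cells by surface protein. CD3, CD4 and CD90.2 (Thy1.2) mark T cells, and CD90.2 with CD127, the interleukin-7 receptor, or KLRG1 and without CD3 marks innate lymphoid cells. CD11b with Ly-6G is the phenotype of neutrophils, CD64 (an Fc receptor) that of macrophages and of monocyte-derived cells, Ly-6C that of young monocytes, and CD11c with or without the integrin CD103 that of dendritic cells. B cells, plasma cells and mast cells have no antibody of their own in the panel. Class names below are phenotypes, and no cell was given a type name from them.

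A cell was called positive for an antibody when its centred log ratio, the natural log of its count plus 1 less the cell's mean over the 11 antibodies, passed a threshold shared by all libraries. The thresholds of CD127 and Ly-6C separated their low and high cells poorly, with an Ashman's D (the distance between both groups in units of their spread) of 1.56 and 1.82, below the limit of 2. The 4 late libraries held between 21688857 and 24154342 antibody counts, and the median count per cell was 914, 1130, 1508 and 1366 at weeks 4, 5, 6 and 7. Week 4 held 18103 barcodes, more than the 16000 cells loaded. The 6 pairs of late pools shared between 32 and 89 barcodes. No doublet caller was run. Where 4 values follow each other below, they are those of weeks 4, 5, 6 and 7 in this order.

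CD4+CD90.2+ cells, the phenotype of CD4 T cells, made up a larger part of each later pool. The ratio of CD4+CD90.2+ cells to all other cells was 0.998, 1.96, 2.77 and 7.97 at weeks 4, 5, 6 and 7. The order followed the weeks, the 4 intervals were separate, and the highest pool stood 7.98-fold above the lowest. The spread was 2.77-fold without week 7 and 4.06-fold without week 4. The tables give no cell number per colon, so that more CD4+CD90.2+ cells and fewer other cells cannot be told apart.

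Among all cells, 5 of the 11 antibodies differed at least 2-fold between the highest and the lowest late pool with separate intervals (45.5%), and 4 of these 5 were myeloid proteins. CD64 was on 31.9%, 9.70%, 11.2% and 1.53% of all cells at weeks 4, 5, 6 and 7. CD64 therefore had the widest spread, 20.9-fold, with week 4 high, week 7 low and weeks 5 and 6 between them. CD11c, an integrin of dendritic cells and of many gut macrophages, was on 34.0%, 10.0%, 15.0% and 2.96% of cells in the same order of weeks, an 11.5-fold spread. CD11b, an integrin of neutrophils, monocytes and macrophages, spread 4.26-fold and lay between 8.94% at week 7 and 38.1% at week 4. Ly-6C spread 3.79-fold, from 3.07% at week 7 to 11.7% at week 4. Each of these 4 proteins was highest at week 4 and lowest at week 7, and weeks 5 and 6 lay between them. Without week 4 the spread was 7.30-fold for CD64, 5.07-fold for CD11c, 2.43-fold for CD11b and 2.90-fold for Ly-6C. Without week 7 it was 3.29-fold, 3.40-fold, 2.20-fold and 2.61-fold.

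The CD64 result turned its direction under 1 alternative. With a threshold fitted in each library, 44.3% of week 7 cells were CD64-positive, against 31.2% at week 4 and 9.04% at week 5. In the week 7 library the CD64 counts of low and high cells could not be separated (Ashman's D of 0.106), and its own threshold was -1.63 on the centred log ratio scale against 0.11 for the shared one. The share of all antibody counts taken by CD64, which needs no threshold, was 4.30%, 1.77%, 1.10% and 0.385% at weeks 4, 5, 6 and 7. The median CD64 count per cell was 8, 9, 10 and 3, with week 7 lowest but week 6 highest.

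By the share of positive cells, the other antibodies were more even over all cells. The median CD90.2 count per cell, read without a threshold, was 176, 385, 793 and 711, a 4.51-fold spread. CD3 was on 55.3%, 71.6%, 55.9% and 88.1% of cells, CD4 on 59.4% to 92.1% and CD90.2 on 53.1% to 90.7%, with spreads of 1.59-fold, 1.55-fold and 1.71-fold. Week 4 was lowest and week 7 highest for all 3 T cell proteins. CD127 was on 31.5%, 47.0%, 36.0% and 64.4% of cells, a 2.04-fold spread that just reached the size rule. It stayed above 2-fold in 3 of 8 alternatives, and was 1.49-fold without week 7 and 1.79-fold without week 4. Ly-6G, the neutrophil protein, was on 7.15%, 4.51%, 4.64% and 6.53% of all cells, a 1.59-fold spread. KLRG1, an inhibitory receptor of activated T cells, NK cells and some innate lymphoid cells, lay between 7.39% and 11.8%. CD103, which binds E-cadherin on epithelial cells, lay between 14.4% and 24.6%.

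**Figure D1:**
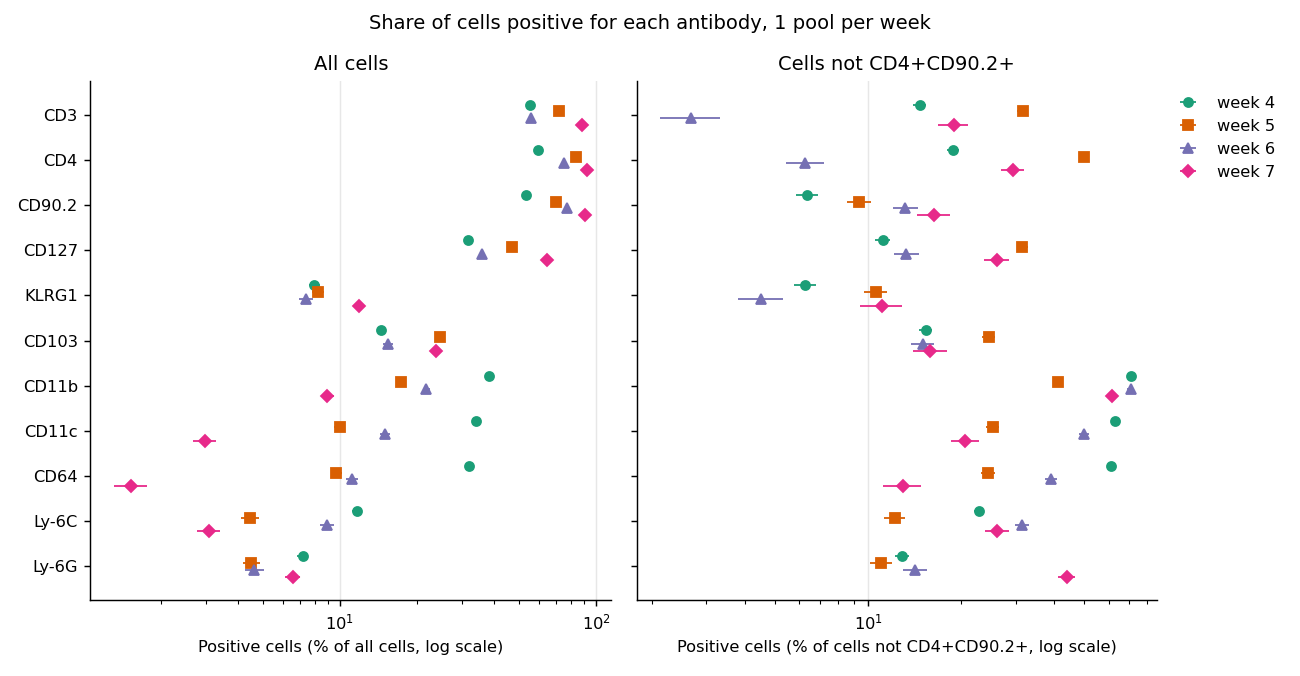
Share of cells positive for each of the 11 antibodies in the 4 late pools, in percent on a log scale, among all cells (left) and among cells that were not CD4+CD90.2+ (right). Points are single pools and bars exact 95% intervals (counting error only). CD64 and CD11c are lowest at week 7 in both panels, and Ly-6G stands apart at week 7 only in the right panel, at 43.9%.

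Cells without both CD4 and CD90.2 were taken as every cell that was not CD4+CD90.2+. They numbered 8965, 4690, 3029 and 1328 at weeks 4, 5, 6 and 7, 18012 in all. Of these, 6710, 1912, 2439 and 721 had neither protein. In this set 9 of the 11 antibodies spread at least 2-fold (81.8%), and the order of the antibodies changed. Ly-6G was on 12.9%, 11.02%, 14.2% and 43.9% of these cells, so that week 7 stood alone above 3 pools within 1.28-fold of each other. CD64 was on 61.2%, 24.4%, 39.2% and 13.0%, a spread of 4.73-fold in place of 20.9-fold. CD11b, which neutrophils and macrophages share, was on 70.8%, 41.0%, 70.6% and 61.5% and spread 1.73-fold. CD103 was on 15.4%, 24.5%, 15.0% and 15.9%, with week 5 alone above the rest.

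CD11c, CD127, CD90.2, KLRG1 and Ly-6C spread in this set between 2.45-fold and 3.05-fold. CD11c was lowest at week 7 (20.6%) and highest at week 4 (63.0%), and CD127 was lowest at week 4 (11.1%) and highest at week 5 (31.6%). CD90.2 lay between 6.36% and 16.3%, KLRG1 between 4.52% and 11.1% and Ly-6C between 12.2% and 31.5%. These last 3 spread under 2-fold without 1 pool: 1.75-fold for CD90.2 without week 4, 1.77-fold for KLRG1 without week 6 and 1.38-fold for Ly-6C without week 5.

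With the shared thresholds, the widest spreads in this set were those of CD3 and CD4, and that of CD3 depended on the setting. CD3, the signalling part of the T cell receptor, was on 14.7%, 31.6%, 2.67% and 18.9% of cells that were not CD4+CD90.2+, an 11.8-fold spread. CD4 was on 18.8%, 49.9%, 6.27% and 29.4%, a 7.95-fold spread. Week 5 was highest and week 6 lowest for both. Without week 6 the spread was 2.15-fold for CD3 and 2.65-fold for CD4. With counts scaled to the library median, CD3 was on 28.5%, 52.9%, 34.9% and 37.9% of these cells, a 1.86-fold spread with week 4 lowest. With thresholds fitted in each library week 4 was also lowest, at 3.23%, and the median CD3 count, read without a threshold, spread 1.38-fold. With CD3+CD4+ cells left out as well, the order of weeks 5 and 6 turned for CD3, at a spread of 3.19-fold.

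The cells that were not CD4+CD90.2+ were then divided into 8 exclusive classes, taken in the order CD11b+Ly-6G+, CD64+, CD11c+CD103+, CD11c+CD103-, other CD11b+, CD90.2+CD4-, CD4+CD90.2- and no listed marker. Of these, 7 spread at least 2-fold between the late pools with separate intervals (87.5%). The exception was CD11c+CD103- cells, at 8.20%, 6.97%, 13.4% and 8.36%, a 1.93-fold spread that was called in 4 of 12 alternatives and reached 4.18-fold. CD11c+CD103+ cells, the phenotype of the dendritic cells that carry antigen from the gut to lymph nodes, were 9.59%, 7.97%, 12.5% and 5.72%. Their 2.19-fold spread stayed above 2-fold in 6 of 12 alternatives, and was 1.68-fold without week 6 and 1.57-fold without week 7. Cells with no listed marker were between 2.45% and 5.07%. They were not free of the other antibodies: CD127 was on 57.7% to 79.4% of them, KLRG1 on 30.6% to 49.2% and CD103 on 25.5% to 52.1%. The 2.07-fold spread of that class was 1.99-fold without week 5 and 1.57-fold without week 4.

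**Figure D2:**
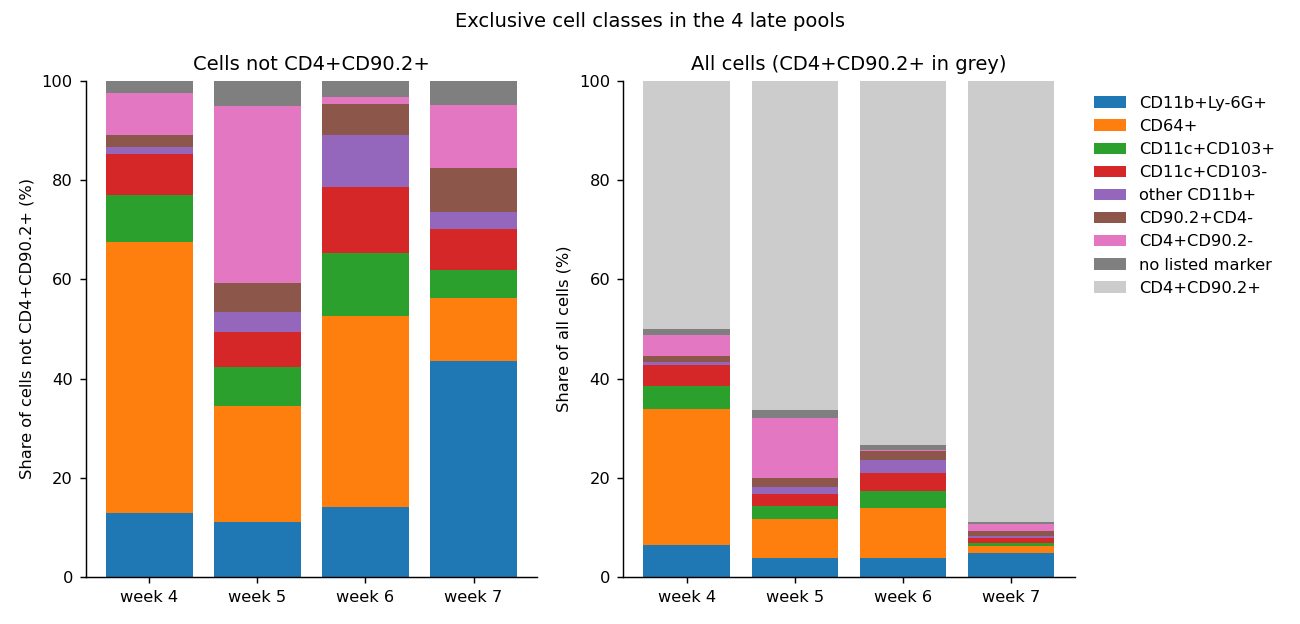
Stacked shares of the 8 exclusive cell classes in each late pool, in percent of cells that were not CD4+CD90.2+ (left) and of all cells (right, CD4+CD90.2+ cells in grey). CD11b+Ly-6G+ cells are 43.5% of the left bar at week 7 but 4.85% of the right one, and CD64+ cells take 27.4% of all cells at week 4 and 1.41% in the last bar.

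CD11b+Ly-6G+ cells, the neutrophil phenotype, were 12.8% (12.1 to 13.5), 11.02% (10.1 to 11.95), 14.1% (12.9 to 15.4) and 43.5% (40.8 to 46.2) of cells that were not CD4+CD90.2+ at weeks 4, 5, 6 and 7. Weeks 4 to 6 lay within 1.28-fold of each other, and week 7 alone made the 3.95-fold spread. As a share of all cells the same class was even: 6.40%, 3.72%, 3.74% and 4.85%, a spread of 1.72-fold. CD64+ cells were 54.7%, 23.4%, 38.6% and 12.7% of the cells that were not CD4+CD90.2+, and 27.4%, 7.88%, 10.2% and 1.41% of all cells. The 19.4-fold spread of CD64+ cells over all cells was 7.26-fold without week 4 and 3.47-fold without week 7.

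A ratio of 2 classes does not have the count of any other class in it. The order in which classes were assigned still decides which cells each holds, and some ratios are to sums of classes. Of the 12 ratios, 10 spread at least 2-fold with separate intervals (83.3%). CD11b+Ly-6G+ cells per CD64+ cell were 0.234 (0.219 to 0.249), 0.472 (0.424 to 0.524), 0.365 (0.326 to 0.408) and 3.44 (2.89 to 4.11) at weeks 4, 5, 6 and 7. CD64+ cells outnumbered the neutrophil phenotype in 3 pools and were outnumbered at week 7. The spread of 14.7-fold was the widest of the 12, and 2.02-fold without week 7. It stayed above 2-fold in all 12 alternatives to the thresholds, filters and cell sets, at 4.51-fold to 17.8-fold. CD11c+CD64- cells are both CD11c+ classes together. CD11b+Ly-6G+ cells per CD11c+CD64- cell were 0.719, 0.738, 0.543 and 3.09, a 5.70-fold spread that was 1.36-fold without week 7.

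**Figure D3:**
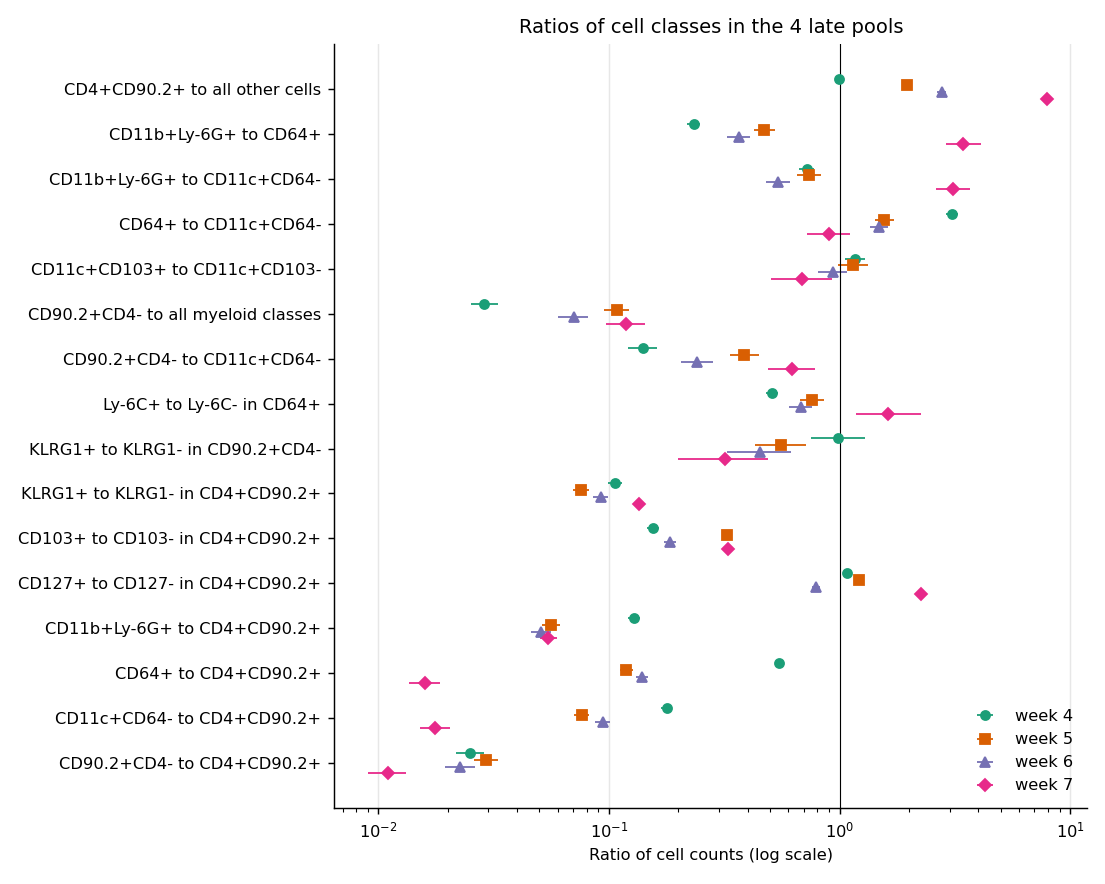
Ratios of cell counts in the 4 late pools on a log scale, with exact 95% intervals (counting error only). The upper 12 ratios are the ones counted in the text, and the lower 4, against CD4+CD90.2+ cells, were added after their values were seen. Week 7 stands apart at 3.44 and 3.09 in both ratios of CD11b+Ly-6G+ cells to myeloid cells.

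Set against the CD4+CD90.2+ cells, the neutrophil phenotype was the steadier side of that ratio. CD11b+Ly-6G+ cells per CD4+CD90.2+ cell were 0.128, 0.0561, 0.0509 and 0.0546 at weeks 4, 5, 6 and 7, a 2.52-fold spread with week 4 highest. Over the last 3 weeks they lay within 1.10-fold of each other. CD64+ cells per CD4+CD90.2+ cell were 0.548, 0.119, 0.139 and 0.0159, a 34.5-fold spread. CD11c+CD64- cells per CD4+CD90.2+ cell were 0.178, 0.0761, 0.0938 and 0.0177, a 10.1-fold spread. CD90.2+CD4- cells per CD4+CD90.2+ cell were 0.0250, 0.0294, 0.0227 and 0.0110, a 2.68-fold spread. Week 7 was thus lowest in CD64+, CD11c+CD64- and CD90.2+CD4- cells per CD4+CD90.2+ cell, and close to weeks 5 and 6 in the neutrophil phenotype. These ratios were added after the values of the classes were seen.

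Staining within the neutrophil phenotype also differed between the pools. The median Ly-6G count of CD11b+Ly-6G+ cells was 588, 660, 793 and 1255, beside the depth per cell given above. CD64 was also positive on 51.1%, 9.67%, 4.22% and 0.692% of CD11b+Ly-6G+ cells at weeks 4, 5, 6 and 7. At week 4 their median CD64 count was 39, against 112 on the CD64+ class. CD4 was positive on 10.5%, 35.4%, 4.45% and 29.4% of CD11b+Ly-6G+ cells, although neutrophils do not make CD4. Barcodes that were CD11b+Ly-6G+ and CD4+CD90.2+ at once were left out of the class, and they were 9.54%, 16.7%, 18.8% and 25.1% of all CD11b+Ly-6G+ barcodes. Their median counts of 2000, 3283, 3585 and 4586 were above the 1774, 1796, 2462 and 3535 of the CD11b+Ly-6G+ cells in the class. With these barcodes counted in, the ratio to CD64+ cells was 0.259, 0.567, 0.450 and 4.60. Only the neutrophil side was widened. CD64 was also positive on 222, 202, 86 and 10 CD4+CD90.2+ barcodes, which the CD64+ side still leaves out. The part of doublets in these values was not tested.

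CD64+ cells were CD11b-positive in 91.6% to 95.4% of cases in the 4 pools, and they differed more in CD11c and Ly-6C. CD11c was on 73.7%, 40.6%, 57.8% and 42.3% of them. Ly-6C, which monocytes lose as they turn into macrophages, gave a ratio of Ly-6C+ to Ly-6C- cells of 0.510 (0.481 to 0.541), 0.762 (0.675 to 0.860), 0.677 (0.601 to 0.762) and 1.63 (1.18 to 2.25). With the shared thresholds, Ly-6C- cells were the larger side in weeks 4 to 6 and the smaller side at week 7, where the class held 168 cells. Which side was larger depended on the setting, and Ly-6C has a poor threshold. With counts scaled to the library median the ratios were 2.73, 6.93, 26.2 and 113. At week 5 the ratio was 1.05 with thresholds fitted on the 4 late pools. With thresholds fitted in each library it was 1.08 at week 5 and 0.496 at week 7. The 3.19-fold spread was 1.49-fold without week 7, and 41.5-fold with counts scaled to the library median. The median Ly-6C count of CD64+ cells, read without a threshold, was 312, 606, 496 and 1648.

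CD64+ cells per CD11c+CD64- cell were 3.08, 1.56, 1.49 and 0.898. Week 4 was high, weeks 5 and 6 did not differ beyond their intervals, and week 7 was low with an interval from 0.725 to 1.11. The 3.42-fold spread was 1.74-fold without week 4. Thresholds fitted in each library turned the order of weeks 4 and 7 for this ratio, at 3.09 and 8.86, and for the Ly-6C ratio, at 0.627 and 0.496. Both ratios then use the week 7 CD64 threshold described above, but all thresholds were refitted at once. At week 7 that of CD11c was 0.0578 against 0.497 for the shared one, and that of Ly-6C 2.43 against 3.16. The part of each threshold was not tested.

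The CD11c+ cells without CD64 kept the most even balance among the myeloid classes. CD11c+CD103+ cells per CD11c+CD103- cell were 1.17 (1.06 to 1.29), 1.14 (0.983 to 1.33), 0.934 (0.810 to 1.08) and 0.685 (0.505 to 0.925), a 1.71-fold spread under the size rule in the data as analysed and in all 12 alternatives. Neighbouring pools in this order did not differ beyond their intervals, and week 7 differed from weeks 4 and 5. Within the CD11c+CD103- class, CD11b was on 39.3%, 39.8%, 61.7% and 25.2% of cells, and CD90.2 on 21.1%, 18.3%, 24.1% and 42.3%. CD4 was on 26.9%, 33.9%, 11.5% and 21.6% of the class, and CD3 on 13.5%, 7.65%, 1.47% and 5.41%. The pool with the highest share thus differed between the lymphoid proteins: week 7 for CD90.2, week 5 for CD4 and week 4 for CD3.

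Other CD11b+ cells, those without Ly-6G, CD64 or CD11c, were a small class that differed in kind between the pools. They were 1.39%, 4.16%, 10.5% and 3.39% of cells that were not CD4+CD90.2+, or 125, 195, 317 and 45 cells, a 7.51-fold spread. No Ly-6C threshold was used to define them, but the Ly-6C count enters the mean on which every antibody is centred. A high Ly-6C count thus lowers a cell's centred CD64 value, so that the class and its Ly-6C are not independent. Ly-6C was positive on 8.80% (4.48 to 15.2), 7.18% (3.98 to 11.8), 81.1% (76.3 to 85.2) and 17.8% (8.002 to 32.1) at weeks 4, 5, 6 and 7. Their median Ly-6C count was 172, 153, 5015 and 154. Week 6 was thus the late pool in which most of this class was Ly-6C+, and CD11b with Ly-6C is the phenotype of monocytes newly arrived from blood. The class also differed in T cell proteins. CD4 was on 44.8%, 61.5%, 1.58% and 24.4% of it, and CD3 on 41.6%, 28.2%, 0.946% and 20.0%. The cells of week 6 lay nearer to the CD64 threshold than those of the other pools. The median CD64 count of the class was 6, 11, 32 and 5, against 66 on the CD64+ cells of week 6. With all thresholds lowered by 0.25, the class was 5.00% of the week 6 set in place of 10.5%, and the CD64+ class 50.3% in place of 38.6%. With thresholds fitted in each library it was 6.50%, and without the top 5% of cells by total 5.56%. Ly-6C+ cells of this class per CD64+ cell were 0.00224, 0.0128, 0.220 and 0.0476. Week 6 was highest, and its interval of 0.191 to 0.252 was separate from the 0.0202 to 0.0960 of week 7, the next in order. In the early pools of weeks 0 to 3, Ly-6C was positive on 10.6%, 26.2%, 63.1% and 46.2% of the same class. The median Ly-6C count at weeks 2 and 3 was 335 and 609, below the 5015 of week 6, and their Ly-6C+ cells per CD64+ cell were 0.0510 and 0.0692, near the value of week 7. This feature was noticed in these data and has no test.

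**Figure D4:**
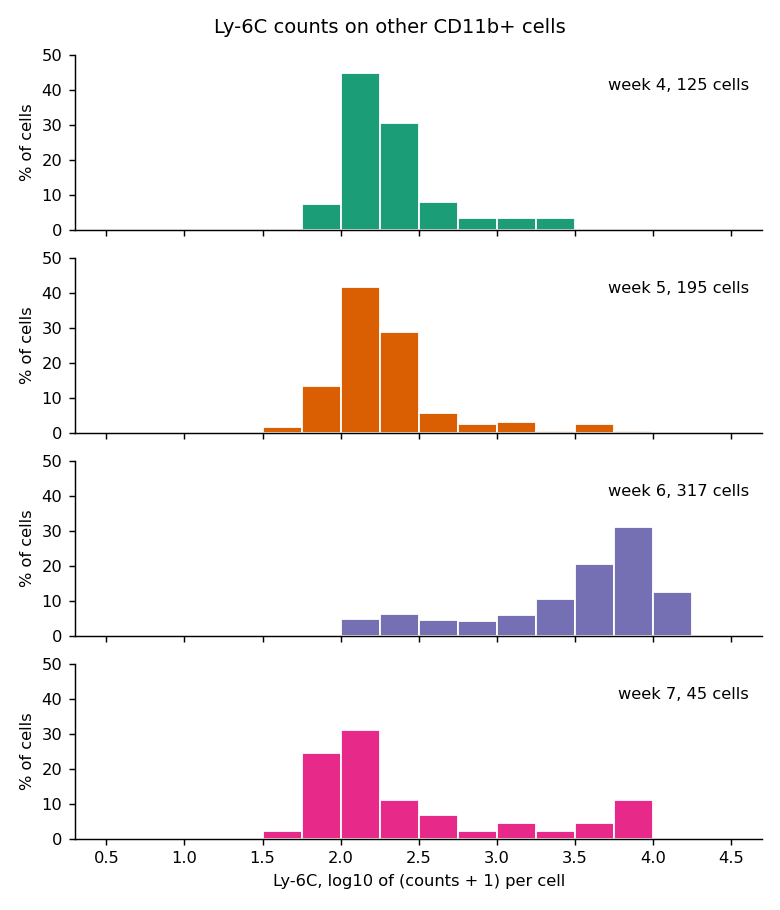
Histograms of Ly-6C counts per cell, as the log10 of the count plus 1, on CD11b+ cells without Ly-6G, CD64, CD11c or the CD4+CD90.2+ phenotype, in percent of 125, 195, 317 and 45 cells at weeks 4 to 7. Most cells of week 6 lie in a high peak around its median of 5015 counts, and most cells of the other weeks lie around medians of 153 to 172. CD4 without CD90.2 was not left out, and CD4 is on 44.8%, 61.5%, 1.58% and 24.4% of these cells.

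CD90.2+CD4- cells without myeloid proteins, the phenotype of innate lymphoid cells and of T cells without CD4, were few in the late pools. They were 2.50%, 5.78%, 6.27% and 8.73% of the cells that were not CD4+CD90.2+, and 1.25%, 1.95%, 1.66% and 0.974% of all cells. The 3.50-fold spread of the first share was 1.51-fold without week 4. CD3 was positive on 10.3%, 3.69%, 16.3% and 14.7% of them and CD127 on 69.6%, 76.4%, 63.7% and 79.3%. With the shared thresholds the class was thus mostly CD3- and CD127+ in all 4 pools, but CD127 has a poor threshold. The median CD127 count of the class was 8, 10, 8 and 10, beside 9, 11, 9 and 13 on CD4+CD90.2+ cells. CD90.2+CD4- cells per cell of any myeloid class were 0.0288, 0.108, 0.0704 and 0.119, a 4.12-fold spread that was 1.69-fold without week 4. Per CD11c+CD64- cell there were 0.140, 0.387, 0.241 and 0.620, a 4.42-fold spread. With thresholds fitted in each library, the order of weeks 4 and 7 turned for the ratio to myeloid cells, at 0.0392 and 0.0371, and the class itself spread 1.33-fold.

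KLRG1 on these cells had its own order across the weeks. KLRG1+ cells per KLRG1- cell in the CD90.2+CD4- class were 0.982 (0.749 to 1.29), 0.557 (0.430 to 0.719), 0.450 (0.325 to 0.617) and 0.318 (0.200 to 0.492) at weeks 4, 5, 6 and 7. The value was lower in each later pool, although the intervals of neighbours overlapped from week 5 on. The 3.09-fold spread was 1.75-fold without week 4. With thresholds fitted in each library the 4 values were 1.59, 0.626, 0.563 and 1.5, so that week 7 lay near week 4 and the order over the weeks was lost. CD103 was on 33.5%, 26.2%, 12.6% and 22.4% of the class.

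CD4+CD90.2- cells without myeloid proteins had the widest spread of the 8 classes, 26.3-fold. They were 8.35%, 35.7%, 1.35% and 12.7% of the cells that were not CD4+CD90.2+, or 749, 1672, 41 and 169 cells. Week 5 was high and week 6 low, and the spread was 9.40-fold without week 5 and 4.27-fold without week 6. With thresholds fitted in each library the shares were 0.594%, 41.6%, 4.39% and 3.73%. Week 5 was then still highest, but week 4 was lowest and week 6 lay above week 7. At week 5, 75.4% of the class carried CD3. On CD3+CD4+ cells the median CD90.2 count was 371, 562, 973 and 763, and CD90.2 was called positive on 89.2%, 85.5%, 99.7% and 98.1% of them. That share uses the same threshold as the class and largely restates it. The median count does not use it, and was lowest at week 4 and highest at week 6. With the shared thresholds the class was largest at week 5 and smallest at week 6. The 5th percentile of the CD90.2 count does not use the threshold either. It was 99, 80, 343 and 192, lowest at week 5 and highest at week 6. CD4+CD90.2- cells among CD3- cells were 0.600%, 10.4%, 0.457% and 1.20%, with the same highest and lowest pools. The median CD3 count of CD4+CD90.2+ cells was lowest at week 6, at 31, against 50, 54 and 58 in weeks 4, 5 and 7. The part of staining in these values was not tested.

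**Figure D5:**
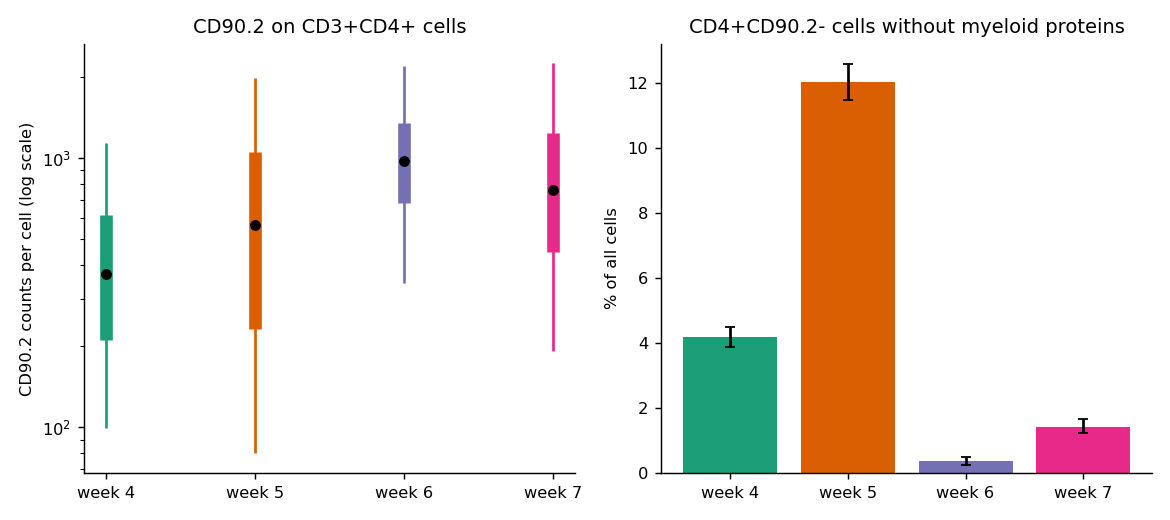
Left, CD90.2 counts per CD3+CD4+ cell in each late pool on a log scale, with the median (dot), quartiles (thick line) and the 5th to 95th percentiles (thin line). Right, CD4+CD90.2- cells without myeloid proteins in percent of all cells, with exact 95% intervals. The class is largest at week 5, at 12.03%, and smallest at week 6, at 0.359%, where the median CD90.2 count is highest at 973.

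Within the CD4+CD90.2+ cells, the 3 ratios examined spread between 1.79-fold and 2.85-fold. CD103+ cells per CD103- cell were 0.155 (0.146 to 0.165), 0.327 (0.311 to 0.342), 0.185 (0.174 to 0.196) and 0.328 (0.313 to 0.343). Weeks 5 and 7 were alike within their intervals and lay above weeks 4 and 6. The 2.11-fold spread was 1.77-fold without week 4. KLRG1+ cells per KLRG1- cell were 0.106, 0.0757, 0.0921 and 0.135, a 1.79-fold spread under the size rule in the data as analysed and in all 10 alternatives. CD127+ cells per CD127- cell were 1.08, 1.21, 0.791 and 2.25, a 2.85-fold spread with week 7 high. It was 1.54-fold without week 7, and CD127 is one of the antibodies with a poor threshold.

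Over the 12 ratios, week 7 was the highest pool in 9 and the lowest in 3, and week 4 the highest in 3 and the lowest in 6. Weeks 5 and 6 were the highest pool in none of the 12. Among the 8 classes of cells that were not CD4+CD90.2+ the extremes were shared more widely, with week 6 highest in 3, weeks 5 and 7 in 2 each and week 4 in 1.

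The late pools were last compared with the 4 early ones of weeks 0 to 3, with weeks as the units. A two-sided exact permutation test over the 70 splits of 8 pools cannot go below p = 0.0286. After Benjamini-Hochberg adjustment an item can thus pass only if most of its family is at that floor. None of the 11 antibodies over all cells or 8 classes passed (0.0% of each family), which says little about any single item. At an unadjusted exact p, 1 of 11 antibodies (9.09%) and 2 of 8 classes (25.0%) had non-overlapping pools. KLRG1 was on 7.39% to 11.8% of all cells in the late pools and on 26.7% to 32.8% in the early ones, with an adjusted exact p of 0.236. CD11b+Ly-6G+ cells were 11.02% to 43.5% of cells that were not CD4+CD90.2+ in the late pools and 0.798% to 9.16% in the early ones. CD90.2+CD4- cells were 2.50% to 8.73% against 18.6% to 44.1%. Both classes had an adjusted exact p of 0.114. The early pools included week 0, in which 0.604% of cells carried CD3, and the change in T cell share is part of every share of all cells.

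Of the 12 ratios, 3 (25.0%) did not overlap between late and early pools, and none passed the adjustment over the 12 (0.0%). CD90.2+CD4- cells per myeloid cell were 0.0288 to 0.119 in the late pools and 0.312 to 0.922 in the early ones. Per CD11c+CD64- cell they were 0.140 to 0.620 against 1.38 to 1.96. Late pools were lower in these 2 of 12 (16.7%), and higher in 1 of 12 (8.33%), that of CD103+ to CD103- cells among CD4+CD90.2+ cells, at 0.155 to 0.328 against 0.0533 to 0.0876. The adjusted exact p was 0.0980 for each of these 3 ratios. The CD103 ratio compares unlike sets of CD4+CD90.2+ cells. At week 0 these numbered 1192, and 100 of the 101 CD3-positive cells lay outside them. CD11b, CD11c, CD64 or Ly-6G was on 56.0%, 28.9%, 22.1% and 5.46% of CD4+CD90.2+ cells at weeks 0 to 3. At weeks 4 to 7 it was 9.87%, 7.27%, 5.87% and 3.09%.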

How the data were processed

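The 9 surface protein libraries of SCID immune cells were used, and the other 55 of the 64 samples were not analysed here. The authors deposited raw whole-number counts for 11 antibodies in each barcode, with no normalization. Cell Ranger 6.0.2, Seurat 4.1.1 and mm10 are listed in the submitters' processing notes, which tie none of them to a step. The selection of barcodes is not described in these sources.

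Barcodes with at least 50 antibody counts and below the top 1% of their library were kept. Counts were turned into centred log ratios with a pseudocount of 1. A cell was positive above the equal-probability point of a 2-component Gaussian mixture, fitted per antibody on 2000 cells from each of the 9 libraries (scikit-learn 1.9.0, Python 3.11.15). A spread was the highest over the lowest late pool, called at 2-fold or more with separate exact Clopper-Pearson 95% intervals. The intervals of a ratio are those of the first class's part in the pair, turned into odds. Late and early weeks were compared by a two-sided exact permutation test of mean logit shares, Benjamini-Hochberg adjusted at 0.05 within antibodies, classes and ratios. The steps were tested on simulated data.

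All antibodies, classes and ratios are named, with full values for the widest and narrowest spreads. The members, classes and ratios were chosen with earlier results of these data known. Alternatives were another scaling, other thresholds, other count filters, thinning to 326 counts per cell, other cell sets, threshold-free summaries and leaving out each library. Assigning myeloid classes first, leaving out CD3+CD4+ cells, the late and early test of ratios and the ratios to CD4+CD90.2+ cells were added after seeing the data.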

Additional observations from a re-analysis of the deposited data

Results flagged for a closer look

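In 5 of 42 values examined in the 4 late pools, 1 pool stood far from the others, with a gap to its neighbour, as a part of the whole range, above Dixon's 95% critical value for 4 samples. Chance alone gives this in about 1 in 20 groups of equal replicates, and the 4 pools here are different weeks. At week 7, Ly-6G was on 43.9% of cells that were not CD4+CD90.2+, with a gap of 0.905 of the range. The class of CD11b+Ly-6G+ cells at week 7 was at 43.5% with the same gap. CD11b+Ly-6G+ cells per CD64+ cell, 3.44 at week 7, had a gap of 0.926, and per CD11c+CD64- cell, 3.09 at week 7, a gap of 0.923. These 4 values count largely the same cells and are not separate evidence. CD103 at week 5 was on 24.5% of cells that were not CD4+CD90.2+, with a gap of 0.909. Week 5 was also the pool in which CD4+CD90.2- cells made up 35.7% of that set. Among cells with neither CD4 nor CD90.2, CD103 was on 14.3%, 24.3%, 16.5% and 12.8% at weeks 4 to 7, with week 5 again highest. That set lacks the CD4+CD90.2- class and all other cells with either protein, and the part of that class was not tested.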

How the results depend on the processing

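The counts of antibodies, classes and ratios with a spread of at least 2-fold moved by more than 1.5 times in few settings. With cells that had neither CD4 nor CD90.2, 4 of 6 classes and 4 of 5 ratios were called, since the other classes and ratios do not exist in that set. Without thresholds, 9 of 11 antibodies spread at least 2-fold over all cells by the median count per cell and 8 of 11 by the percent of all counts, with no intervals. Leaving out 1 pool at a time gave 4 to 5 antibodies over all cells, 8 in the cells that were not CD4+CD90.2+, 5 to 6 classes and 6 to 10 ratios, lowest without week 4. The order of the highest and lowest pools turned in 9 cases. With counts scaled to the library median these were KLRG1 in the cells that were not CD4+CD90.2+ (spread 2.06) and cells with no listed marker (3.13). With thresholds fitted in each library they were CD64 over all cells (4.90), the CD90.2+CD4- class (1.33), CD64+ to CD11c+CD64- cells (6.76), CD90.2+CD4- to myeloid cells (2.49) and Ly-6C on CD64+ cells (2.18). Among CD3- cells it was CD4 (3.58), and with CD3+CD4+ cells left out CD3 (3.19). The week 7 CD64 threshold is described with CD64, and the cause of these turns was not tested. No antibody or class passed the late and early test in any setting, and the lowest adjusted exact p was 0.0786, without week 3 or without week 4. Thinning left out 1.69% to 4.98% of cells in the late pools and up to 26.6% in the early ones. No paired analysis was possible because each week is 1 pool. Small classes limit precision most at week 7, where other CD11b+ cells numbered 45.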
